A study of Mus musculus with 12 samples.

Results

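The 41 genes followed here encode liver enzymes that break amino acids down or pass on their single-carbon, methyl and sulfur groups. They were chosen by gene symbol. Each was found once in a table of read counts for 25611 genes, and all 41 were among the 13190 genes with enough reads to be tested. RNA came from whole livers of male C57BL/6J mice aged 8 to 10 weeks, with 4 mice in each of 3 groups, all harvested 30 hr after surgery. Sham mice had the abdomen opened and the cecum left untouched. CLP mice underwent cecal ligation and puncture, which lets gut bacteria into the abdomen and is a model of sepsis. CLP+DCA mice underwent CLP and at 24 hr received dichloroacetate (DCA), an inhibitor of pyruvate dehydrogenase kinases, at 25 mg/kg into the abdomen, 6 hr before harvest. Every mouse had surgery and fluid under the skin. What sham and CLP mice were injected with at 24 hr is not given in the sources used here. There was 1 dose and 1 harvest time, so a change before or after 30 hr was not measured.

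Most amino acids are broken down chiefly in hepatocytes, the branched-chain ones being the main exception. Tyrosine, tryptophan, histidine, serine, glycine, proline and lysine each have a route of their own that ends in fuel for the TCA cycle or in glucose, with the nitrogen passed to urea. Methionine is first made into S-adenosylmethionine, the methyl donor of the cell, and what remains after methyl transfer is either remethylated or turned into cysteine and taurine. Glucocorticoids, glucagon and fasting raise several of these enzymes, tyrosine aminotransferase being the textbook case.

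Between 24436513 and 44266819 reads per mouse fell on genes. The first principal component of all tested genes held 59.2% of the variance, and CLP replicates 2 and 4 (-72.8 and -46.3) and CLP+DCA replicate 3 (-82.6) stood apart from the other CLP mice (-10.4 and -8.7), the other CLP+DCA mice (16.4 to 28.9) and sham (33.1 to 40.6). Acute phase genes took 12% to 13.7% of reads in sham, 21.6% to 36.5% in CLP and 15.9% to 35.7% in CLP+DCA. Of the 33 listed, 16 rose in CLP against sham, where 1.64% of all tested genes rose and 1.14% fell. Summed over all 13 neutrophil markers, sham held 6.97 to 10.04 CPM (reads per 1000000 reads on genes, on TMM library sizes), CLP 34.4 to 48.7 and CLP+DCA 7.02 to 63.5, and 2 of the 11 tested rose in CLP. Hepatocyte markers (13 measured) summed to 85840 to 106600 CPM in sham, 66910 to 75830 in CLP and 63630 to 83180 in CLP+DCA, and 3 of them fell in CLP. Kupffer cell markers ran from 180 to 311, 291 to 378 and 225 to 442 CPM in these groups, with 1 of 10 rising in CLP. Endothelial markers (135 to 174, 142 to 186 and 128 to 184 CPM), stellate and bile duct markers (74.6 to 113, 129 to 243 and 91.3 to 283 CPM) and lymphocyte markers (1.96 to 4.21, 0.539 to 1.60 and 0.921 to 2.94 CPM) had no gene past the test in CLP against sham. At an unadjusted p under 0.05, 2 of 8 endothelial and 6 of 10 stellate and bile duct markers were higher (15.5% of all genes). Of the 4 lymphocyte markers with enough reads to be tested, 3 were lower at that p (13.1% of all genes). No marker in these lists was at 0 in all mice.

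CLP livers held less RNA of most of the 41 genes than sham livers. Of the 41, 33 had a negative log2 fold change and 8 a positive one, with a median of -0.48 beside 0.02 over all 13190 genes. In 24 members every CLP mouse lay below every sham mouse, against 14.2% of all genes, and in 2 members (Mat1a and Cdo1) every CLP mouse lay above every sham mouse, against 12.2% of all genes. In the edgeR fit of all 12 mice (quasi-likelihood), 1 member, Etnppl, fell at a Benjamini-Hochberg false discovery rate (FDR) of 0.05, against 1.14% of all genes, and 0 rose, against 1.64%. At an unadjusted p under 0.05, 13 members were lower and 3 higher, against 13.1% and 15.5% of all genes. DESeq2 called 22 lower and 4 higher on the 8 mice of this comparison (11.4% and 11.8% of all genes). On the same 8 mice edgeR called 14 lower and 2 higher, and 18.3% of all genes in either direction. Limma-voom with sample weights called 22 in either direction (25.9% of all genes). On simulated counts with no mouse set apart, DESeq2 made more wrong calls than edgeR and limma-voom and recovered more changed genes. Those counts were drawn at edgeR's own estimate of the spread, so they do not decide between the tools here. Scaling by library size alone shifted the median of all genes to -0.15 and that of the members to -0.63, with 5 of the 41 positive and 0 past the FDR. In a whole liver, fewer hepatocytes and less RNA per hepatocyte cannot be told apart.

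How many members passed the test in CLP against sham changed when 1 mouse that is in neither group was left out. CLP+DCA replicate 3 enters the fit through the spread estimated over all mice and the filter, and why the count changed was not tested. Without it 13288 genes were tested, and 18 members passed lower, against 11.5% of all genes, and 3 passed higher (Sdsl, Gldc and Mat1a), against 12.2%, while the median log2 fold change stayed at -0.48.

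**Figure D1:**
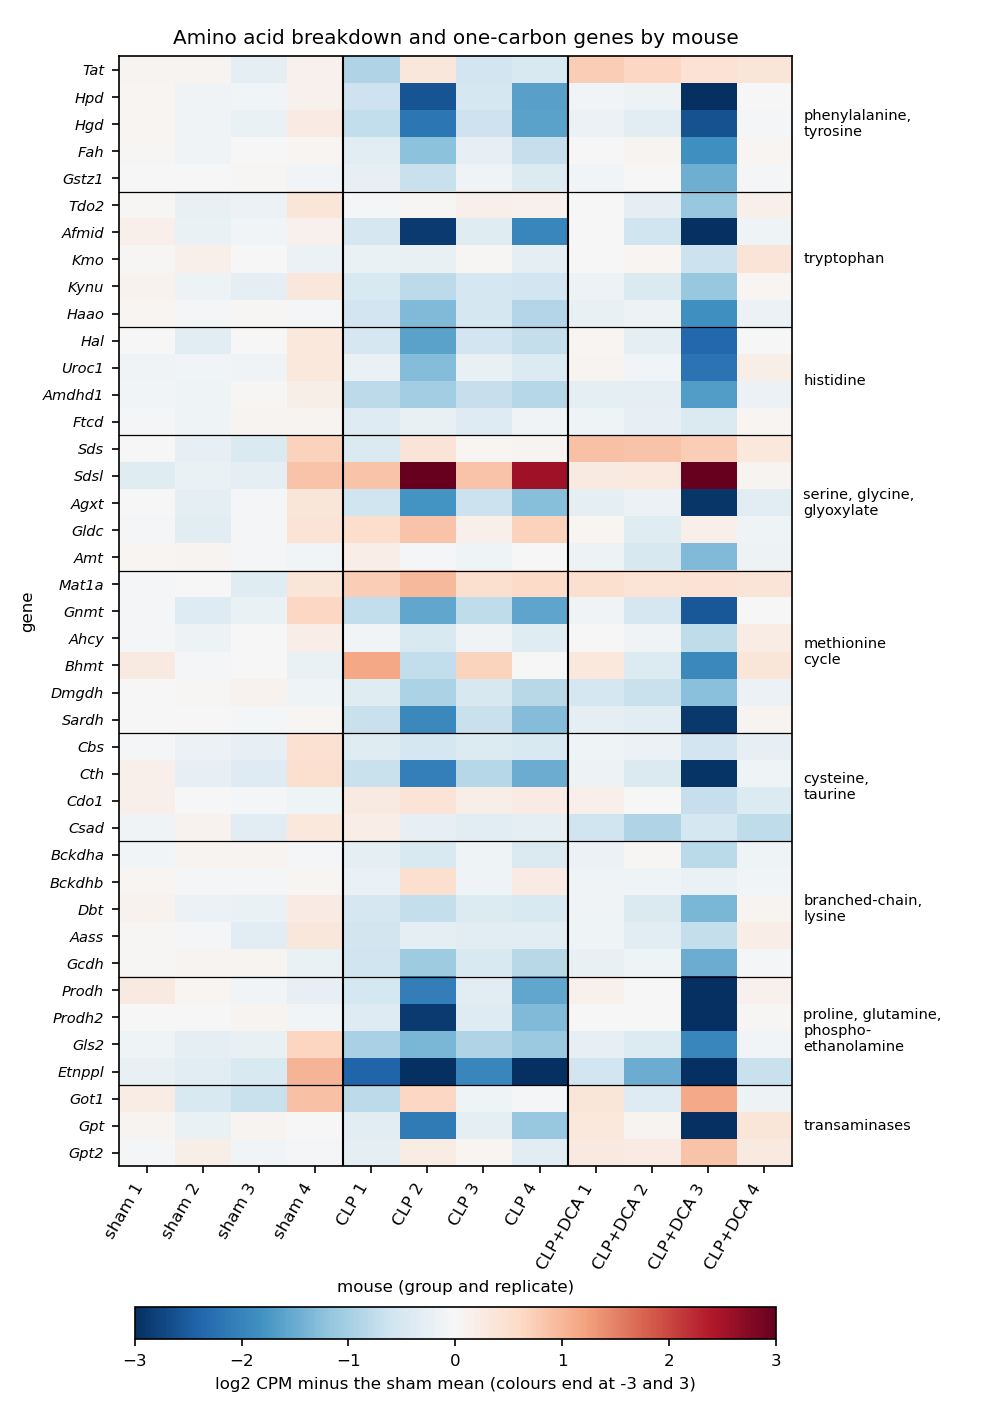
Each row is 1 of the 41 genes, grouped by pathway, and each column 1 mouse; colour gives log2 CPM minus the sham mean of that gene, blue for lower and red for higher. The CLP columns are mostly blue, CLP+DCA replicate 3 is the deepest blue column and is the lowest of all 12 mice for 31 genes, and the other CLP+DCA columns are pale.

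Etnppl, which breaks down phosphoethanolamine, had the most negative log2 fold change of the 41 (Gene ID 71760, mm10 chr3:130617448-130635750, + strand). The sham mice held 94.3, 87.5, 79.7 and 223 CPM, the CLP mice 20.9, 4.64, 28.2 and 9.70, and the CLP+DCA mice 74.1, 39.0, 9.67 and 69.6. Every CLP mouse was below every sham mouse, sham replicate 4 stood well above the other sham mice, and CLP+DCA replicate 3 was among the CLP values while the other 3 lay between CLP and sham. Its sham mean was 121 ± 68.2 CPM and its CLP mean 15.8 ± 10.7 CPM (± SD over 4 mice). On the log2 scale that was a change of -2.92 with a standard error of 0.68 (edgeR adjusted p = 0.0476), and ± after a log2 fold change gives the standard error from here on. Leaving out 1 mouse at a time moved that adjusted p between 0.00903 (without CLP+DCA replicate 3) and 0.125 (without CLP replicate 2), and it stayed past the threshold in 3 of 12 such fits. It was 0.0551 with scaling by library size alone and 0.0782 without a filter on low counts. CLP+DCA was at -1.33 ± 0.64 against sham (adjusted p = 0.400).

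Etnppl is the member past the FDR in CLP against sham. Tat had the smallest edgeR p of the members in CLP+DCA against CLP (unadjusted p = 0.00365), and did not pass the FDR (adjusted p = 0.306). Hgd has 3 matches to the C/EBP motif, and Hal, which is not shown, has more. The bases before the transcription start are shown for Etnppl, Hgd and Tat, with matches to the C/EBP motif in capitals. They are RefSeq sequences of build GRCm38.p6, 250 bases each, written 5′ to 3′ on the gene's own strand, from chr3:130617198-130617447, chr16:37579903-37580152 and chr8:109990186-109990435, all on the + strand.
Etnppl: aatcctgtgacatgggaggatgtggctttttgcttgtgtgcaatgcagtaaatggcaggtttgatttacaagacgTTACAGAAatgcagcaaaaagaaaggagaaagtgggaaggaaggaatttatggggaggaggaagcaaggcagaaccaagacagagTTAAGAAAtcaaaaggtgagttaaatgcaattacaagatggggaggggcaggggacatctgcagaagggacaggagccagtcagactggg
Hgd: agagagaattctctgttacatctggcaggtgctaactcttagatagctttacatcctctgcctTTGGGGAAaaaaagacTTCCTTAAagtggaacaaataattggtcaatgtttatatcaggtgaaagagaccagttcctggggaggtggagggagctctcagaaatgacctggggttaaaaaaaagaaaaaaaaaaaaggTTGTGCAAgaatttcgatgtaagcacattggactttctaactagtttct
Tat: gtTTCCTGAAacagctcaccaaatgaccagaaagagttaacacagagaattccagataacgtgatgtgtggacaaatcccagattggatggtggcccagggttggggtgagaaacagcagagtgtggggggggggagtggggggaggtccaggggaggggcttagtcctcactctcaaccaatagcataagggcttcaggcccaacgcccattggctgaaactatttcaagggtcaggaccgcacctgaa
Promoters were given for 32 of the 41 members, and not for Kynu, Sds, Sdsl, Mat1a, Cth, Cdo1, Dbt, Gls2 or Gpt. On either strand, the C/EBP motif TTNNGNAA (N for any base), a site of liver and acute phase regulators, was found in 10 of the 32, or 31.2%, and in 36.9% of 27025 promoters of all genes. The glucocorticoid receptor motif ACANNNTGT was found in 3 members (Tdo2, Hal and Bhmt), or 9.38%, and in 5.91% of all promoters. Bases outside the 250 were not searched, so a gene without a match here, Tat among them, is not shown to lack such a site. GTTAAT, part of the HNF1 motif, was found in 3 (Haao, Ftcd and Prodh2) against 6.52% of all, CAAAGTC, part of the HNF4 motif, in 1 (Kmo) against 3.80% of all, and the cyclic AMP response element TGACGTCA in 0 against 1.62% of all. These matches overlap no other motif in the printed windows.

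All 3 genes for proline, hydroxyproline and glutamine had every CLP mouse below every sham mouse. Gls2, the liver glutaminase, which frees ammonia from glutamine, was at a log2 fold change of -1.13 ± 0.35 (adjusted p = 0.0765). Prodh and Prodh2, which oxidize proline and hydroxyproline, were at -0.96 ± 0.57 and -0.95 ± 0.67, with adjusted p of 0.269 and 0.351. Spryd4 overlaps Gls2 on the other strand and reached at most 39.4 CPM, and reads of such a pair could not be told apart where strand was not counted.

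**Figure D2:**
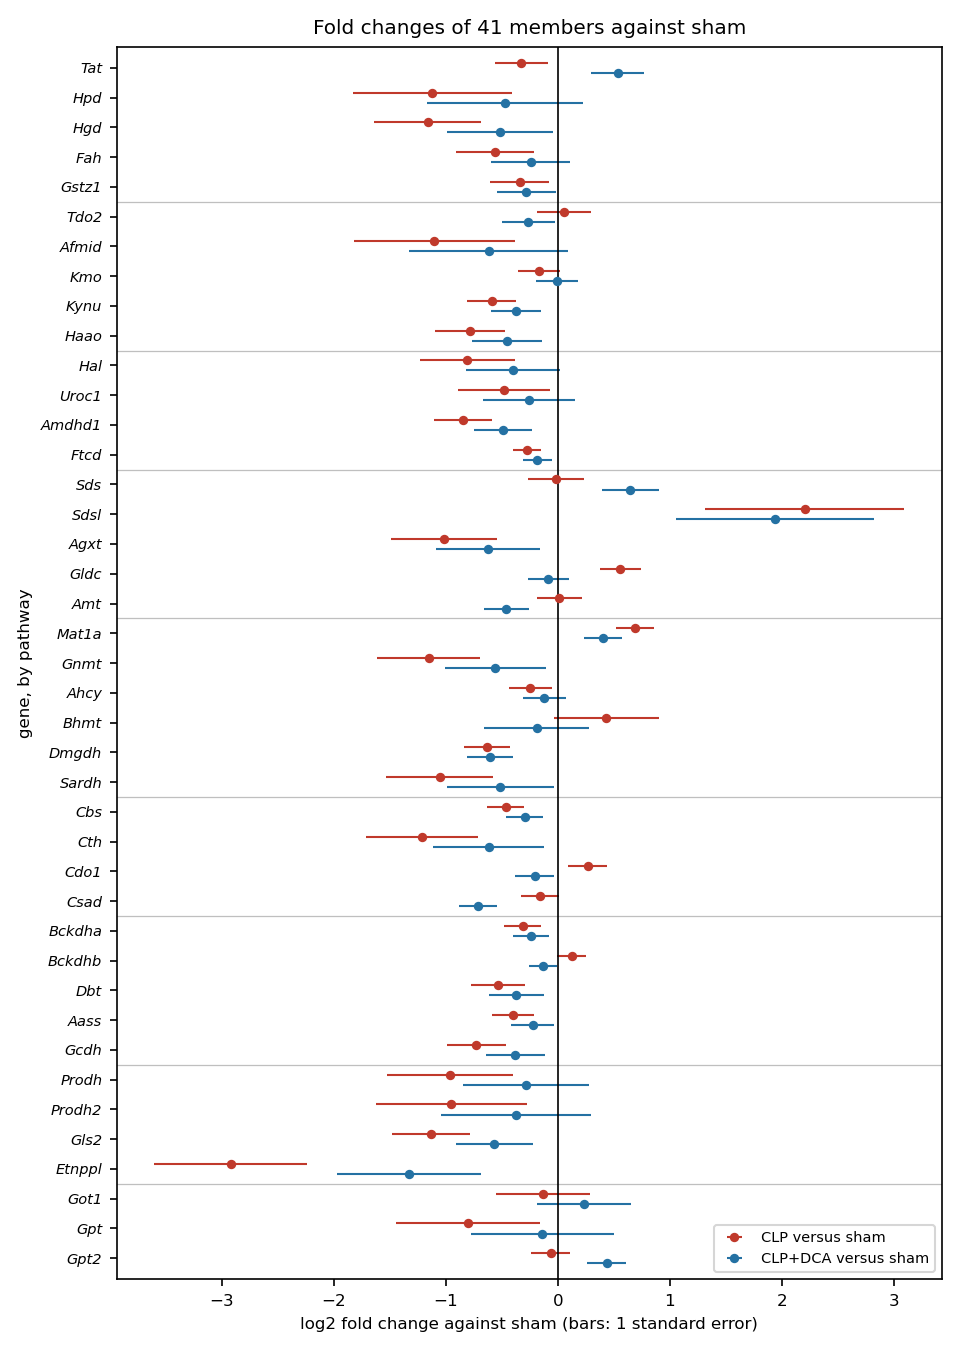
Points are edgeR log2 fold changes of each gene in CLP (red) and CLP+DCA (blue) against sham, on the horizontal axis, with bars of 1 standard error, genes ordered by pathway. Etnppl lies furthest to the left at -2.92 and Sdsl furthest to the right at 2.20, and the CLP bars of Hpd, Afmid, Prodh2 and Gpt are among the widest, with standard errors from 0.64 to 0.72.

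All 5 genes of tyrosine breakdown had a negative log2 fold change in CLP, with a median of -0.56, and 4 of the 5 (all but Tat) had no overlap with sham. Hgd, homogentisate dioxygenase, had the smallest p of the group (Gene ID 15233, mm10 chr16:37580153-37632026, + strand). It was at 545, 484, 452 and 621 CPM in sham, 314, 116, 337 and 172 in CLP, and 463, 413, 84.8 and 508 in CLP+DCA. CLP replicates 2 and 4 were the low pair of that group, and CLP+DCA replicate 3 was lower still. CLP was at -1.16 ± 0.48 against sham (adjusted p = 0.138, and 0.0167 without CLP+DCA replicate 3).

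Gstz1, the isomerase before the last step, is also the enzyme that clears DCA by removing its chlorine (Gene ID 14874, mm10 chr12:87147165-87164723, + strand). It was at 603, 609, 616 and 570 CPM in sham, 508, 378, 554 and 452 in CLP, and 568, 600, 219 and 588 in CLP+DCA. In CLP+DCA, 3 values lay at or near the sham range and replicate 3 lay below all other mice. By edgeR neither group passed the test against sham. CLP was at -0.34 ± 0.26 (adjusted p = 0.388) and CLP+DCA at -0.28 ± 0.26 (adjusted p = 0.635). CLP+DCA differed from CLP by 0.06 ± 0.26 (adjusted p = 0.951). No CLP mouse reached the sham range, however. DESeq2 on the sham and CLP mice alone called Gstz1 lower in CLP (adjusted p = 0.0307). Without CLP+DCA replicate 3, CLP was at -0.34 ± 0.12 against sham by edgeR (adjusted p = 0.0566). In that fit CLP+DCA was at -0.04 ± 0.13 against sham and 0.31 ± 0.13 against CLP (adjusted p = 0.969 and 0.146). Gm6566 and Pomt2 overlap it on the other strand, at no more than 39.2 CPM.

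Hpd, the dioxygenase before Hgd, and Fah, the last enzyme, were at -1.12 ± 0.71 and -0.56 ± 0.35 (adjusted p = 0.298 and 0.291). Hpd is given by mouse because of its spread, a choice made after its values were seen. It ran from 1403 to 1653 CPM in sham, was at 981, 248, 1056 and 488 in CLP, and at 1432, 1350, 62.4 and 1501 in CLP+DCA, so that 1 CLP+DCA mouse was far below every other mouse and the other 3 were at or just under the sham range.

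Tat, tyrosine aminotransferase, begins the route (Gene ID 234724, mm10 chr8:109990436-109999804, + strand) and had another pattern. Sham mice held 2013, 1990, 1559 and 2063 CPM, CLP mice 1019, 2403, 1280 and 1371, and CLP+DCA mice 3168, 2904, 2538 and 2427. All CLP+DCA mice, replicate 3 included, were above every sham and every CLP mouse, while CLP replicate 2 alone of its group was above sham. CLP was at -0.33 ± 0.24 against sham (adjusted p = 0.359), CLP+DCA at 0.53 ± 0.24 against sham (adjusted p = 0.377) and at 0.86 ± 0.24 against CLP (adjusted p = 0.306), which is 1.82 times the CLP level. DESeq2 called it in CLP+DCA against sham (8 mice, adjusted p = 0.0335) and edgeR did not.

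Of the 5 genes that take tryptophan through kynurenine, 4 had a negative log2 fold change in CLP, and in 3 (Afmid, Kynu and Haao) no CLP mouse reached the sham range. Kynu, kynureninase, was at 162, 135, 122 and 189 CPM in sham, 109, 87.5, 105 and 101 in CLP, and 134, 111, 67.8 and 155 in CLP+DCA (Gene ID 70789, mm10 chr2:43555325-43683048, + strand). The CLP mice lay close together under all sham mice, and those of CLP+DCA ran from below all CLP mice to within the sham range. CLP was at -0.59 ± 0.22 against sham (adjusted p = 0.116, and 0.0171 without CLP+DCA replicate 3). Haao, which opens the ring of 3-hydroxyanthranilate, was at -0.79 ± 0.31 (adjusted p = 0.129). Afmid, the formamidase, was at -1.10 ± 0.72 (adjusted p = 0.312), with the overlapping Tk1 on the other strand at up to 31.1 CPM. Tdo2, the enzyme that sets the pace of the route, was at 0.06 ± 0.24 (adjusted p = 0.892), and Kmo at -0.17 ± 0.19 (adjusted p = 0.555).

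The 4 genes of histidine breakdown had negative log2 fold changes in CLP, and Hal, Uroc1 and Amdhd1, though not Ftcd, had no overlap with sham. Amdhd1, imidazolonepropionase, was at 199, 191, 215 and 238 CPM in sham, 122, 102, 130 and 116 in CLP, and 175, 173, 66.1 and 186 in CLP+DCA (Gene ID 71761, mm10 chr10:93523338-93540033, - strand). All sham mice were above all others, and 3 of the CLP+DCA mice lay between CLP and sham. CLP was at -0.85 ± 0.26 (adjusted p = 0.0761, and 0.00112 without CLP+DCA replicate 3). CLP+DCA was at 0.35 ± 0.26 against CLP (adjusted p = 0.677, and 0.0202 without that mouse). Hal, histidase, which neighbours Amdhd1 on chromosome 10, was at -0.81 ± 0.42, Uroc1, urocanase, at -0.48 ± 0.41, and Ftcd, which hands the last carbon to folate, at -0.28 ± 0.13, with adjusted p between 0.177 and 0.437.

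Serine, glycine and glyoxylate genes went both ways. Gldc, the glycine-binding protein of the glycine cleavage system, was at 112, 91.8, 111 and 152 CPM in sham, 165, 209, 129 and 186 in CLP, and 120, 89.3, 127 and 104 in CLP+DCA (Gene ID 104174, mm10 chr19:30098441-30175441, - strand). Each CLP mouse was above each CLP+DCA mouse, the closest pair being 129 and 127 CPM, and 3 of the CLP mice were above all of sham. CLP was at 0.56 ± 0.18 against sham (adjusted p = 0.0886, and 0.0405 without CLP+DCA replicate 3), and CLP+DCA at -0.64 ± 0.18 against CLP (adjusted p = 0.326). Amt, another protein of that system, was at 0.01 ± 0.20 in CLP against sham and at -0.47 ± 0.20 in CLP+DCA against CLP (adjusted p = 0.975 and 0.467), the latter being -0.27 without CLP+DCA replicate 3.

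Sds, serine dehydratase, was at -0.01 ± 0.25 in CLP and 0.65 ± 0.25 in CLP+DCA against sham (adjusted p = 0.972 and 0.322), and overlaps Plbd2 on the other strand, at up to 94.1 CPM. Sdsl, its paralog and neighbour on chromosome 5, was the member with the largest positive log2 fold change in CLP, 2.20 ± 0.89 (adjusted p = 0.135). By mouse, a choice made after the values were seen, Sdsl was at 11.2, 12.4, 11.8 and 25.8 CPM in sham, 25.8, 148, 26.0 and 83.5 in CLP, and 17.4, 17.6, 184 and 15.2 in CLP+DCA. The 3 highest mice were CLP replicates 2 and 4 and CLP+DCA replicate 3, those that stood apart on the first principal component. CLP+DCA was at 1.94 ± 0.88 against sham (adjusted p = 0.382), and at 0.13 without replicate 3. Agxt, which detoxifies glyoxylate, was at -1.02 ± 0.47 in CLP (adjusted p = 0.180) with no overlap with sham.

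Of the methionine cycle genes, Mat1a, which makes S-adenosylmethionine in the liver, had the smallest p (Gene ID 11720, mm10 chr14:41105033-41124428, + strand). It was at 3900, 4032, 3123 and 5142 CPM in sham, 6687, 7858, 5568 and 5967 in CLP, and 5553, 5307, 5370 and 5201 in CLP+DCA. The groups did not overlap, with sham lowest and CLP highest, and the CLP+DCA mice lay within 5201 to 5553 CPM. CLP was at 0.69 ± 0.17 against sham (adjusted p = 0.0534, and 0.0146 without CLP+DCA replicate 3) and CLP+DCA at 0.40 ± 0.17 (adjusted p = 0.355). Of the other genes of this group, Gnmt, which methylates glycine, was at -1.16 ± 0.46 in CLP (adjusted p = 0.129), Sardh at -1.05 ± 0.48 (adjusted p = 0.173) and Dmgdh at -0.63 ± 0.20 (adjusted p = 0.0840), each without overlap with sham. The last 2 return methyl groups of sarcosine and dimethylglycine to folate. Dmgdh was about as low in CLP+DCA, at -0.61 ± 0.20 against sham (adjusted p = 0.295), but at -0.44 without CLP+DCA replicate 3. AW495222, which overlaps Dmgdh on the other strand, reached 0.191 CPM. Ahcy, which splits S-adenosylhomocysteine, was at -0.25 ± 0.19 and Bhmt, which remethylates homocysteine with betaine, at 0.43 ± 0.47 (adjusted p = 0.391 and 0.545).

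Cbs and Cth, which turn homocysteine into cysteine, were both below sham in every CLP mouse. Cbs was at 547, 501, 472 and 774 CPM in sham, 440, 390, 422 and 411 in CLP, and 518, 495, 380 and 474 in CLP+DCA (Gene ID 12411, mm10 chr17:31612623-31637205, - strand). The CLP mice were close together, and sham replicate 4 stood above the rest, at -0.46 ± 0.16 in CLP (adjusted p = 0.0998, and 0.0402 without CLP+DCA replicate 3). Cth was at -1.21 ± 0.50 (adjusted p = 0.141). The genes that take cysteine on to taurine had another order. Csad, cysteine sulfinic acid decarboxylase, was at 409, 474, 347 and 548 CPM in sham, 504, 367, 354 and 365 in CLP, and 288, 233, 304 and 257 in CLP+DCA (Gene ID 246277, mm10 chr15:102176998-102189043, - strand). All CLP+DCA mice, replicate 3 included, lay below all sham and CLP mice, at -0.71 ± 0.17 against sham (adjusted p = 0.225) and -0.55 ± 0.17 against CLP (adjusted p = 0.363). DESeq2 called Csad in CLP+DCA against sham (8 mice, adjusted p = 0.00843) and edgeR did not. Cdo1, cysteine dioxygenase, the step before, was at 0.27 ± 0.17 in CLP against sham and -0.48 ± 0.17 in CLP+DCA against CLP (adjusted p = 0.311 and 0.414), in both cases without overlap.

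Of the genes for branched-chain amino acids and lysine, 4 of 5 had a negative log2 fold change in CLP. Gcdh, glutaryl-CoA dehydrogenase, at the end of the lysine and tryptophan routes, was at 509, 526, 519 and 428 CPM in sham, 326, 234, 358 and 280 in CLP, and 420, 451, 175 and 479 in CLP+DCA (Gene ID 270076, mm10 chr8:84886387-84893921, - strand). No CLP mouse reached sham, and 3 CLP+DCA mice were above all CLP mice. CLP was at -0.73 ± 0.26 (adjusted p = 0.108, and 0.00611 without CLP+DCA replicate 3) and CLP+DCA at 0.35 ± 0.26 against CLP (adjusted p = 0.692, and 0.0447 without that mouse). Syce2, on the other strand, overlaps it at up to 6.06 CPM. Bckdha, Bckdhb and Dbt, subunits of the branched-chain ketoacid dehydrogenase, were at -0.31 ± 0.16, 0.12 ± 0.13 and -0.53 ± 0.24 (adjusted p = 0.220, 0.526 and 0.174), and Aass, which opens lysine breakdown, at -0.40 ± 0.19 (adjusted p = 0.187).

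Among the transaminases, Gpt, the cytosolic alanine transaminase, was at 280, 230, 278 and 267 CPM in sham, 206, 60.8, 219 and 119 in CLP, and 326, 276, 18.8 and 338 in CLP+DCA (Gene ID 76282, mm10 chr15:76696726-76699675, + strand). Every CLP mouse was below sham, and the CLP+DCA group held both the highest and the lowest mouse, at -0.80 ± 0.64 in CLP and -0.14 ± 0.64 in CLP+DCA against sham (adjusted p = 0.409 and 0.930), and the latter was 0.25 without CLP+DCA replicate 3. Gpt2, the mitochondrial form, was at -0.06 ± 0.17 in CLP and 0.44 ± 0.17 in CLP+DCA against sham (adjusted p = 0.822 and 0.328), with all CLP+DCA mice above all others and replicate 3 the highest at 665 CPM, without which CLP+DCA was at 0.26 against sham. Got1, an aspartate transaminase, was at -0.13 ± 0.42 and 0.23 ± 0.42 (adjusted p = 0.852 and 0.810), and the latter turned to -0.16 without CLP+DCA replicate 3.

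**Figure D3:**
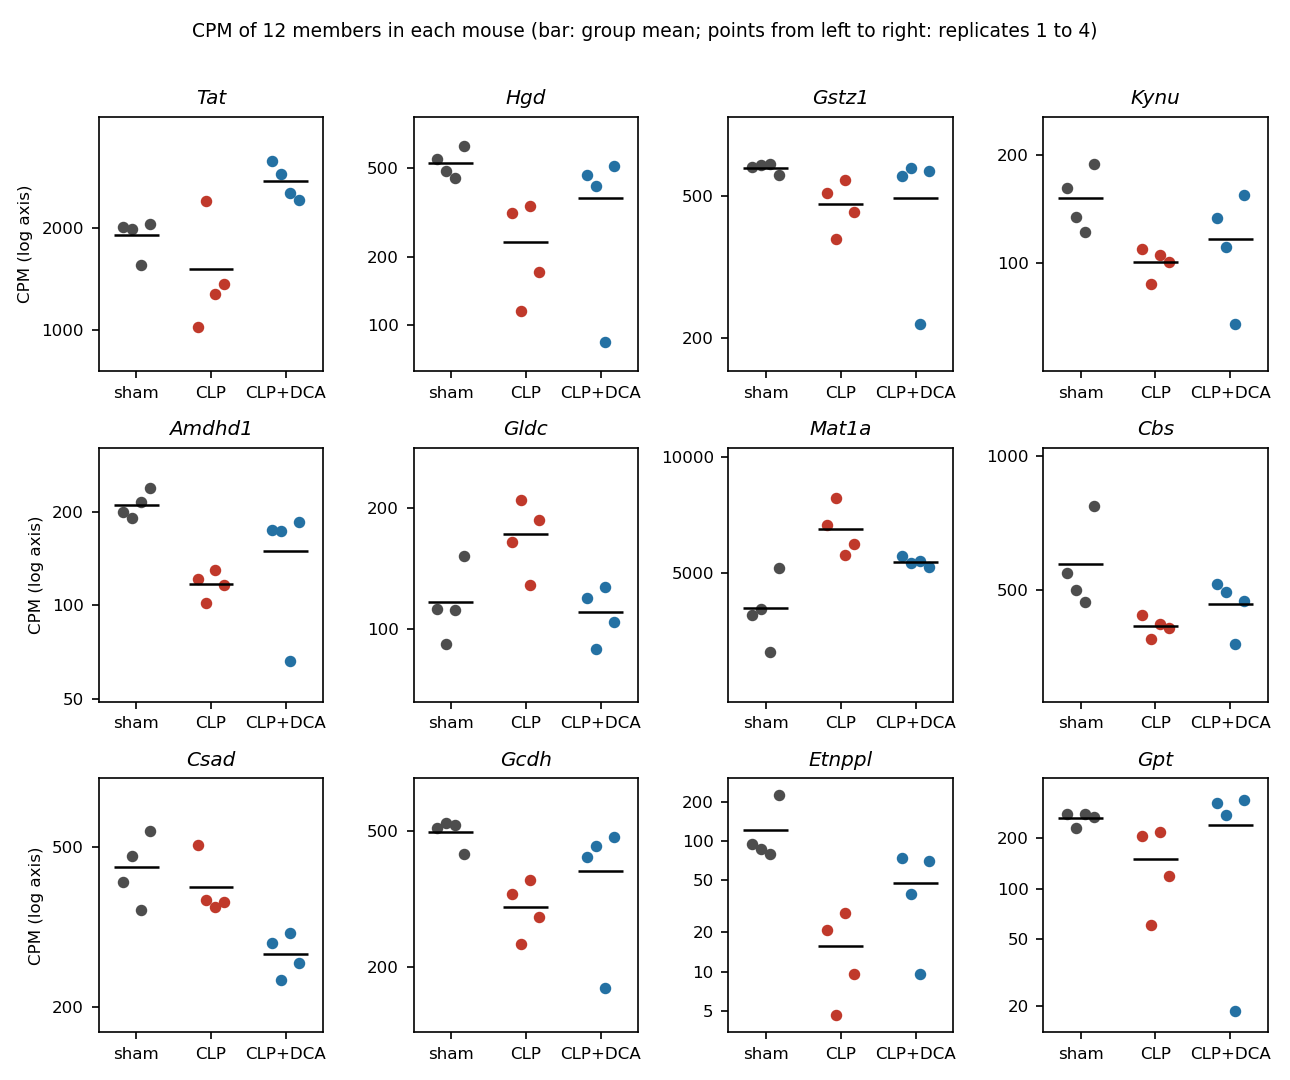
CPM on log axes for 12 members in each mouse of sham (grey), CLP (red) and CLP+DCA (blue), with a bar at the mean of 4 mice. Hgd, Kynu, Amdhd1, Cbs, Gcdh, Etnppl, Gstz1 and Gpt show CLP under sham and 1 low CLP+DCA mouse (replicate 3). All 4 CLP+DCA mice lie below both other groups in Csad and between sham and CLP in Mat1a. In Tat they lie above both, by a narrow margin over CLP (2427 against 2403 CPM).

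By place in the cell, 20 of 25 members of the cytosol and 12 of 15 of the mitochondria had a negative log2 fold change in CLP, with medians of -0.47 and -0.53. The remaining member, Agxt, is shared by mitochondria and peroxisomes.

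In CLP+DCA against sham, 35 members had a negative and 6 a positive log2 fold change, with a median of -0.29 beside 0.01 over all genes. No overlap with sham was seen in 7 members that were lower (Haao, Amdhd1, Amt, Dmgdh, Csad, Bckdhb and Etnppl), against 4.97% of all genes, and in 3 that were higher (Tat, Mat1a and Gpt2), against 4.78%. By edgeR 0 members passed the FDR, against 0.0379% of all genes, and 3 lower and 5 higher had an unadjusted p under 0.05, against 4.85% and 8.14%. DESeq2 on the 8 mice called 2 of the 40 members it tested, Csad and Tat, against 1.19% of all genes, and limma-voom called 3, Sds, Dmgdh and Csad, against 3.59%. Without CLP+DCA replicate 3 the median was -0.11, with 28 members negative and 13 positive, and the values of 33 of the 41 turned sign or moved by over 1.5 times. The sign turned for Fah, Kmo, Uroc1, Ahcy, Bhmt, Prodh, Prodh2 and Gpt, to between 0.01 and 0.25, and for Got1.

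In CLP+DCA against CLP, 32 members had a positive and 9 a negative log2 fold change, with a median of 0.32 beside 0.01 over all genes. This comparison shares the CLP mice with the first, so the values of the 2 comparisons are not independent of each other. All CLP+DCA mice lay below all CLP mice in 5 members (Gldc, Amt, Mat1a, Cdo1 and Csad), against 2.05% of all genes, and above them in 2 (Tat and Gpt2), against 2.32%. By edgeR 0 members passed the FDR, against 0.00758% of all genes, and 4 lower and 4 higher had an unadjusted p under 0.05, against 4.94% and 5.06%. DESeq2 on the 12 mice called 1, Tat, against 0.875%, and DESeq2 on the 8 mice 0, while limma-voom, which gives mice that fit poorly less weight, called 9 (Tat, Amdhd1, Sds, Gldc, Csad, Gcdh, Gls2, Etnppl and Gpt2), against 9.76%. Without CLP+DCA replicate 3, edgeR called 3 members higher in CLP+DCA (Amdhd1, Gcdh and Gls2), against 2.01% of all genes, with 31 members positive and 10 negative, and 32 of the 41 turned sign (Got1, to -0.03) or moved by over 1.5 times.

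CLP+DCA replicate 3 had the lowest mean of the 41 members of any mouse. On the log2 scale relative to sham, the mean was 0.02, -0.11, -0.13 and 0.21 in sham, -0.35, -0.83, -0.30 and -0.60 in CLP, and -0.02, -0.20, -1.42 and -0.01 in CLP+DCA. All CLP mice lay under all sham mice, and CLP+DCA replicates 1 and 4 lay within the sham range. Below every sham mouse were 31, 28, 29 and 29 members in the 4 CLP livers, and 12, 21, 34 and 10 in those of CLP+DCA. The members took 2.23% to 2.77% of reads in sham, 1.65% to 2.23% in CLP, and 2.77%, 2.37%, 1.39% and 2.57% in CLP+DCA. Without Mat1a, the member with the most reads, the share was 1.89% to 2.24% in sham and 1.09% to 1.65% in CLP. In CLP+DCA it was then 2.17%, 1.83%, 0.897% and 2.04%. Beside these means, acute phase genes took 25.4%, 36.5%, 21.6% and 33.7% of reads in CLP replicates 1 to 4, with 17.3%, 20.3%, 35.7% and 15.9% for CLP+DCA, and neutrophil markers summed to 34.4, 48.7, 41.3 and 37.0 CPM and to 7.02, 15.3, 63.5 and 7.70 CPM. Mice with lower member means had a higher share of acute phase reads, within CLP as well as within CLP+DCA, and the part of either measure in the member values was not tested.

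**Figure D4:**
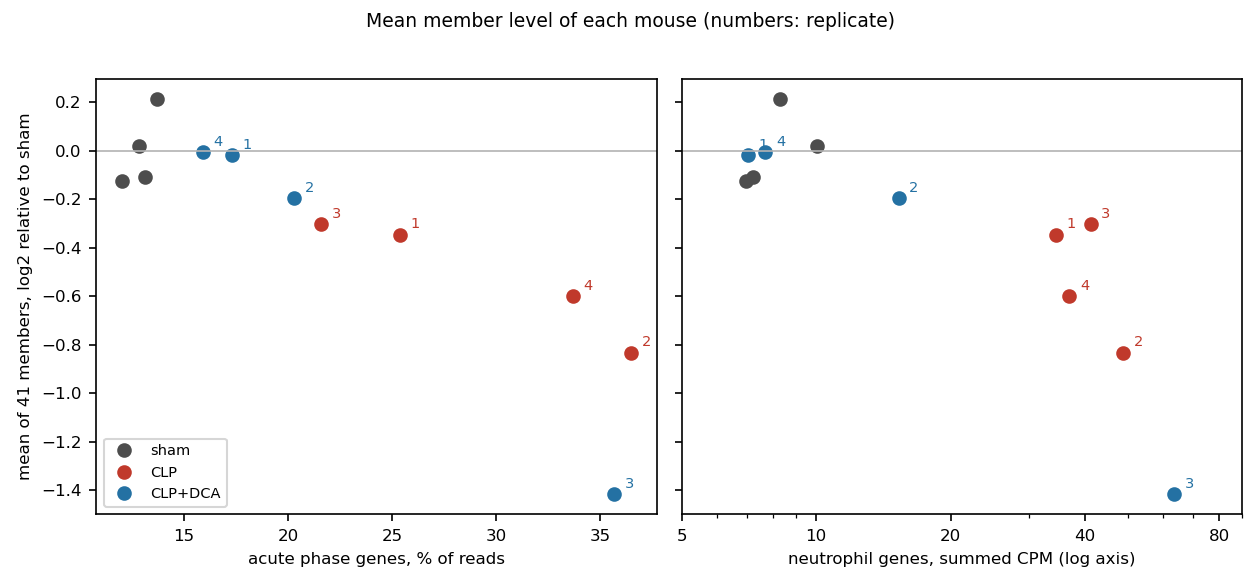
Each point is a mouse, with the mean of the 41 members on the log2 scale relative to sham on the vertical axis, against the percent of reads on acute phase genes (left) and the summed CPM of neutrophil markers on a log axis (right), and the replicate number beside CLP and CLP+DCA points. CLP+DCA replicate 3 lies at -1.42 with 35.7% acute phase reads and 63.5 CPM, and the other CLP+DCA mice lie at -0.20 or above with 20.3% or less.

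Further genes of the same pathways, a list of 75 symbols of which 71 were measured, gave 58 negative and 13 positive log2 fold changes in CLP against sham, with a median of -0.44. Past the FDR were 2, both lower (1.14% of all genes were), and 30 lower and 5 higher had an unadjusted p under 0.05, against 13.1% and 15.5% of all genes. Ddc, which decarboxylates aromatic amino acids, fell by 1.04 on the log2 scale (SE 0.22, adjusted p = 0.0412), and Pccb, a subunit of propionyl-CoA carboxylase, by 0.49 (SE 0.11, adjusted p = 0.0463). In the other 2 comparisons 0 of the 71 passed edgeR's test, with 8 lower and 5 higher at an unadjusted p under 0.05 in CLP+DCA against sham (4.85% and 8.14% of all genes) and 1 in each direction in CLP+DCA against CLP (4.94% and 5.06%). Of 12 regulators of liver amino acid enzymes, 0 passed in any comparison. Those with the smallest p in CLP against sham were Cebpa, a C/EBP factor, at -0.51 ± 0.18 (adjusted p = 0.0938), Nr3c1, the glucocorticoid receptor, at -0.29 ± 0.11 (adjusted p = 0.124), Klf15, an activator of amino acid breakdown in fasting, at -0.61 ± 0.33 (adjusted p = 0.242) and Foxo1, a factor held back by insulin, at 0.21 ± 0.12 (adjusted p = 0.258). In CLP+DCA, 1 regulator was lower and 2 higher than sham at an unadjusted p under 0.05 (4.85% and 8.14% of all genes). Against CLP, 0 were lower and 1 higher (4.94% and 5.06%). Cebpb, another C/EBP factor, was at 0.15 ± 0.28 in CLP against sham (adjusted p = 0.730). In CLP+DCA it was at 0.95 ± 0.28 against sham and 0.79 ± 0.28 against CLP (adjusted p = 0.273 and 0.402).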

How the data were processed

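The authors prepared TruSeq v2 libraries from whole liver RNA, a kit that does not mark strand, aligned the reads to mm10 (STAR 2.5) and used featureCounts (Subread 1.5.0-p1) for read counts by gene. The deposited table holds raw counts of 25611 genes in 12 mice. The strand setting and the gene annotation are not given in the sources used here. Each mouse was 1 replicate under the group and number of its label, and the smallest chi-square per degree of freedom between replicates, 25.6, was far above sampling noise. Total counts set the counting error, which for these genes is small beside the spread between mice.

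In R 4.3.3, genes were filtered with filterByExpr (minimum count 10, 13190 genes left), normalized by TMM and tested with edgeR 4.0.16 (robust quasi-likelihood, all 12 mice in 1 fit, 9 residual degrees of freedom), with Benjamini-Hochberg adjustment over all tested genes at 0.05. Standard errors are the log2 fold change divided by the square root of F. CPM is on TMM library sizes, and log2 CPM used a prior count of 2. DESeq2 1.42.0, limma 3.58.1 with voom and sample weights, other scalings and filters, and fits without each mouse were alternatives. The tests were checked on simulated counts with 200 changed genes and no mouse set apart from its group. There DESeq2 on 8 mice recovered 141 and made 59 wrong calls. The edgeR fit of all 12 mice recovered 117 with 8 wrong, and limma-voom 115 with 6 wrong.

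The members, the marker, acute phase, wider pathway and regulator lists and the tests were chosen with earlier results of these data known. Of the hepatocyte markers, 2 are also on the acute phase list. Values by mouse are given for members past the FDR, for the member with the smallest p in CLP against sham of each of 9 pathway groups, for the 3 with the smallest p in CLP+DCA against CLP, and for Gstz1. Hpd and Sdsl, and Cebpb of the regulators, were added after their values were seen. Of the wider pathway and regulator lists, genes past the FDR are named, or else the 4 with the smallest p.

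Promoters are the 250 bases before the start in RefSeq's GRCm38.p6 table, whose chromosome coordinates are those of mm10, and for 30 of the 32 members found the start is that of the deposited table.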

Additional observations from a re-analysis of the deposited data

Results flagged for a closer look

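In each group of 4 mice, the highest or lowest value of a member was marked where its gap to the nearest other mouse, divided by the range of the group on the log2 scale, was above Dixon's 95% critical value. Of 123 groups 25 were marked. Chance marks about 1 in 20 of independent groups. These groups are genes measured in the same mice and are not independent, so the count cannot be judged against that rate. The share marked over all genes is not given. Of the 25, 19 were CLP+DCA replicate 3, which also stood apart on the first principal component of all tested genes. In that mouse the lowest values of the group were Hpd at 62.4 CPM, Hgd at 84.8, Fah at 165, Gstz1 at 219, Afmid at 5.20, Haao at 118, Hal at 93.7, Uroc1 at 87.3 and Amdhd1 at 66.1 CPM. Among the further genes it was lowest for Agxt at 34.4 CPM, Sardh at 117, Cth at 45.3, Gcdh at 175, Prodh at 19.9, Prodh2 at 13.3, Gls2 at 104 and Gpt at 18.8 CPM. It was the highest of its group for Sdsl at 184 CPM and Gpt2 at 665 CPM. Sham replicate 4 was the highest of sham for Uroc1 at 499 CPM, Sdsl at 25.8 and Etnppl at 223, and the lowest for Gcdh at 428 CPM. Sham replicate 3 was the lowest of sham for Tat at 1559 CPM, and CLP replicate 1 the highest of CLP for Csad at 504 CPM.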

How the results depend on the processing

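The median log2 fold change of the members kept its sign in all 3 comparisons under every alternative, and ran from -0.57 to -0.37 in CLP against sham, from -0.44 to -0.11 in CLP+DCA against sham and from 0.19 to 0.40 in CLP+DCA against CLP when single mice were left out. Counts of members past the FDR did not hold. In CLP against sham the count was 1 (2.78% of all genes were called), and 8 with DESeq2 on all 12 mice (13.4%), 26 with DESeq2 (23.2%) and 16 with edgeR (18.3%) on the 8 mice compared, 22 with limma-voom (25.9%), 2 with a filter of 1 CPM (3.52%), 0 without a filter (0.647%), 0 with library size alone (1.58%) and 7 at an FDR of 0.1 (15.3%). Leaving out 1 mouse at a time gave 0 to 21, the highest without CLP+DCA replicate 3 (23.8%). In CLP+DCA against sham the count was 0, and 1 with DESeq2 on 12 mice (1.79%), 2 on 8 mice (1.19%) and 3 with limma-voom (3.59%). In CLP+DCA against CLP it was 0, and 1 with DESeq2 on 12 mice (0.875%), 9 with limma-voom (9.76%) and 0 to 3 when single mice were left out, 3 being without CLP+DCA replicate 3 (4.64%). An alternative chosen after seeing the data, the 9 mice other than CLP replicates 2 and 4 and CLP+DCA replicate 3, gave 14 members in CLP against sham (9.99%) and 3 in CLP+DCA against CLP (2.75%). The replicate block gave 0 members in CLP against sham (0.349%), and the numbers are not known to pair the mice: same-numbered mice correlated from -0.46 to 0.55. Fits without a group or a mouse estimate the spread from fewer mice, and why the counts moved was not tested. Among the 12 members given by mouse under the rule for named genes, the sign turned for Gldc in CLP+DCA against sham without sham replicate 4 (0.066, with a range over single mice left out from -0.185), for Gpt in CLP+DCA against sham with limma-voom (0.18), in the 9 mice (0.25) and without CLP+DCA replicate 3 (0.25, from -0.35), and for Gstz1 in CLP+DCA against CLP without CLP+DCA replicate 2 (-0.064, up to 0.306). With 4 mice per group, members that miss the FDR are not shown to be unchanged.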
